A study of Camellia reticulata with 27 samples.

Results

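White petals of the cultivar Tongzimian (TZM) were compared with red petals of the cultivar Shizitou (SZT) of Camellia reticulata at the full-bloom stage. The comparison used 6 of the 27 RNA sequencing libraries of the series, 3 from each cultivar, chosen by the cultivar, stage and replicate number in their labels. The other libraries were TZM and SZT at the bud stage and a mixed white-red cultivar, Manao (MN), a bud variant of SZT, sampled at bud stages 1 and 3, at initial flowering and, at full bloom, separately in its white and red regions. No treatment was applied, plant age is not given, and all groups came from plants grown in tea gardens. The labels give the tissue as flowers and the study's methods as petals. The deposited table names no genes, so the tissue was not checked against marker genes. The labels do not say whether the libraries of a group came from separate plants, so p-values measure only the spread between these libraries. Each color was represented by 1 cultivar, so effects of color and of other differences between the cultivars cannot be told apart.

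Red petal color in many flowers comes from anthocyanins, which are made from phenylpropanoid precursors by a chain of flavonoid enzymes. Chalcone synthase (CHS) makes the first flavonoid of the chain, flavanone 3-hydroxylase (F3H) and dihydroflavonol 4-reductase (DFR) act next, and anthocyanidin synthase (ANS) forms the colored anthocyanidins. Anthocyanidin reductase (ANR) draws on the same anthocyanidins to make colorless flavan-3-ols, the building blocks of procyanidins. Transcription factors, among them MYB, bHLH and WD40-repeat proteins, regulate the genes of this chain.

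At full bloom the white petals of TZM held less transcript of CHS, F3H, DFR and ANS than the red petals of SZT, with sums over the named transcripts 2.40 to 8.87 times higher in SZT. At the bud stage none of these sums was called different between the cultivars. The widest ratio, of ANS, was not called when unnamed transcripts sharing the number in its name were added. The narrowest, of F3H, missed the call threshold when any single library of the comparison was left out. The difference between the cultivars went far beyond the pigment chain. Of 225938 transcripts in the table, 35889 had a mean of at least 5 FPKM (fragments per kilobase, scaled to the fragments mapped in the library) in TZM or SZT and were tested with limma on log2(FPKM + 1). A transcript was called at a log2 difference of at least 1 in size and an adjusted p (Benjamini-Hochberg, over all tested) of at most 0.001. On this rule 4568 transcripts (12.7%) were higher in TZM and 4838 (13.5%) were lower, 9406 in all (26.2%). In bulk petals, fewer cells of a type and less RNA per cell cannot be told apart.

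The 3 TZM libraries resembled each other with Pearson's r of 0.783 to 0.873 across the tested transcripts, the 3 SZT libraries with 0.817 to 0.877, and a TZM with an SZT library with 0.350 to 0.493. Replicate 1 of TZM stood somewhat apart. Its r was 0.793 with replicate 2 and 0.783 with replicate 3, which had 0.873 between them, and its median r with the TZM bud libraries was 0.678 against 0.582 and 0.595 for replicates 2 and 3. Without it 9640 transcripts were called. Replicate 1 of SZT was also the least like its group, with r of 0.817 and 0.821 against 0.877 between the others, and 8993 transcripts were called without it. The 10 most abundant transcripts took 5.19% of the FPKM in replicate 1 of TZM, 12.9% in replicate 2 and 13.7% in replicate 3, and 8.34%, 4.63% and 4.03% in the SZT libraries. Between 127831 and 148030 transcripts per library were above 0. Read totals per library were not used here, so the depth behind a single value is unknown and low values are the least precise.

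**Figure D1:**
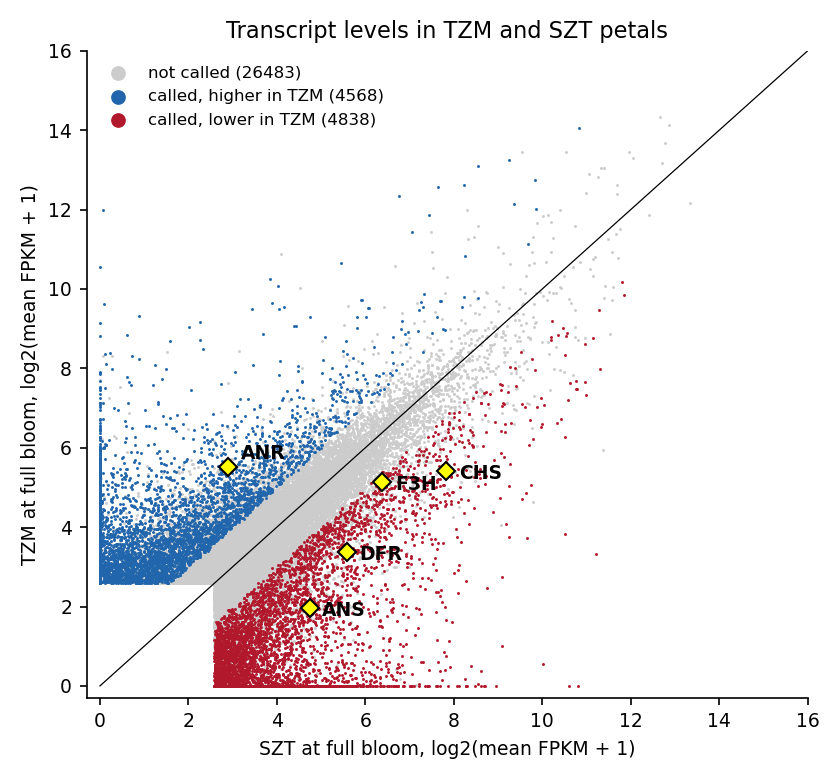
Each point is 1 of the 35889 tested transcripts, placed by its mean level over 3 libraries in SZT (x axis) and TZM (y axis) at full bloom, both as log2(mean FPKM + 1). Blue points are the 4568 called higher in TZM, red points the 4838 called lower, diamonds the summed named transcripts of each enzyme, and the line marks equal levels. CHS, F3H, DFR and ANS lie below the line and ANR above it.

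The called transcripts were often far apart in level. Those higher in TZM had a median of 12.2 FPKM in TZM and 1.4 FPKM in SZT, and those lower had a median of 1.04 FPKM in TZM and 13.4 FPKM in SZT. The median log2 difference was 2.33 among the former and −2.59 among the latter, and 0.04 over all tested transcripts. Transcripts called lower in TZM were the larger share among abundant ones. Of the 305 transcripts with at least 500 FPKM in either cultivar, 69 (22.6%) were lower and 50 (16.4%) higher in TZM. Of the 14506 with 5 to 10 FPKM, 12.9% were lower and 12.7% higher. When only the 6 libraries of the comparison entered the fit, the spread was estimated from fewer libraries and 1322 transcripts were called, 565 higher and 757 lower, while 15685 had an adjusted p under 0.05 (19731, or 55%, in the fit over all 27 libraries).

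CHS showed the clearest step of the chain. Its 6 named transcripts summed to 53.6, 27.9 and 43.3 FPKM in the TZM libraries and to 263, 198 and 219 FPKM in the SZT libraries. Every TZM library lay below every SZT library. The mean was 41.6 ± 12.9 FPKM (SD, n = 3) in TZM and 227 ± 33.2 FPKM in SZT, 5.45 times higher, and the log2 difference was −2.46 (SE 0.30, limma adjusted p 1.03e-06). Of the 6 CHS transcripts 4 passed the filter and 2 were called, both lower in TZM. Cluster-72978.11 had 8.94, 12.6 and 13.4 FPKM in TZM against 64.5, 82.4 and 89.6 FPKM in SZT. Cluster-72978.8 had 42.9, 10 and 24.3 FPKM against 182, 108 and 123 FPKM. In neither did the cultivars overlap, and the log2 differences were −2.66 (SE 0.24, limma adjusted p 1.46e-08) and −2.55 (SE 0.52, limma adjusted p 0.000324). The latter call was lost when replicate 2 (limma adjusted p 0.00389) or 3 (0.00122) of TZM or replicate 1 (0.00235) or 3 (0.00126) of SZT was left out. The remaining pair was scarce, with log2 differences of −1.65 (limma adjusted p 0.00186) for Cluster-72978.4 and −0.54 (limma adjusted p 0.250) for Cluster-72978.9, whose groups overlapped. Across all tested transcripts the cultivars did not overlap, with TZM lower, in 26.9% and, with TZM higher, in 29.4%.

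F3H had the smallest difference among the named sums that were lower in TZM. The 6 named transcripts summed to 28.1, 37.1 and 37.9 FPKM in TZM and to 97.0, 78.5 and 72.1 FPKM in SZT. The groups did not overlap, SZT was 2.40 times higher, and the log2 difference was −1.24 (SE 0.26, limma adjusted p 0.000473). Of the 3 F3H transcripts tested, Cluster-88339.0 (20.4 FPKM in TZM, 48.5 FPKM in SZT) and Cluster-88339.5 (7.07 FPKM in TZM, 23.5 FPKM in SZT) were called lower, with log2 differences of −1.21 and −1.58. The third, Cluster-88339.4, had 6.33 FPKM in TZM and 6.46 FPKM in SZT, and its libraries overlapped. The call of Cluster-88339.0 was lost without any single library other than replicate 3 of SZT (limma adjusted p 0.00142 to 0.00383). That of Cluster-88339.5 held in each of these fits. On the 6 libraries alone neither call held (limma adjusted p 0.0051 and 0.00328). Whether the F3H transcripts differed among themselves was not tested. Without any single library of the 6, the F3H sum kept its direction but missed the threshold, with adjusted p of 0.00112 to 0.00354.

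DFR and ANS each rested on 1 tested transcript, since the others stayed below the filter in both cultivars. The DFR sum was 13.7, 6.90 and 7.67 FPKM in TZM and 45.9, 48.8 and 45.8 FPKM in SZT. The SZT libraries lay close together and all above TZM, 4.98 times higher in the mean, with a log2 difference of −2.26 (SE 0.44, limma adjusted p 0.000232). It missed the threshold when replicate 2 (adjusted p 0.00199) or 3 (0.00163) of TZM, or replicate 2 (0.00127) or 3 (0.00111) of SZT, was left out. Cluster-90241.3 carried nearly all of the DFR sum, with 9.20 ± 3.68 FPKM (SD, n = 3) in TZM and 45.1 ± 2.23 FPKM in SZT.

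The ANS sum had the widest ratio, with 3.34, 3.18 and 2.17 FPKM in TZM and 16.1, 27.1 and 33.8 FPKM in SZT. SZT was 8.87 times higher without overlap, and the log2 difference was −2.73 (SE 0.45, limma adjusted p 3.99e-05). It came from Cluster-21086.8, at 2.90 FPKM in TZM and 25.1 FPKM in SZT. The ANS result depended on which transcripts were counted. Another 6 transcripts carry the same number as the named ones but no enzyme name, and together they had 21.3 FPKM in TZM and 19.4 FPKM in SZT. Of these 2 were tested, and 1 was called higher in TZM and 0 lower, against 12.7% and 13.5% of all tested transcripts. Over all 9 the sum was 33.8, 14.0 and 24.7 FPKM in TZM and 59.4, 27.1 and 48.6 FPKM in SZT, the groups overlapped, and the log2 difference of −0.88 was not called (limma adjusted p 0.127). For CHS, F3H and DFR, adding such transcripts left the log2 differences at −2.34, −1.23 and −2.24.

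With 3 libraries against 3, an exact two-sided permutation test cannot go below 0.1, and CHS, F3H, DFR and ANS each reached that value. The 20 enzyme transcripts, like the other named lists, were chosen by the study on these same samples, so their direction is not independent evidence. Among the 11 that were tested, 6 were called lower and 0 higher (1 higher at an adjusted p under 0.05, a transcript of ANR), against the 13.5% and 12.7% of all tested transcripts. When limma was fitted on the 6 libraries alone, the sums had adjusted p of 0.00163 for CHS, 0.00441 for F3H, 0.00189 for DFR and 0.00184 for ANS, none of which passed the threshold of 0.001 though all lay under 0.05.

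**Figure D2:**
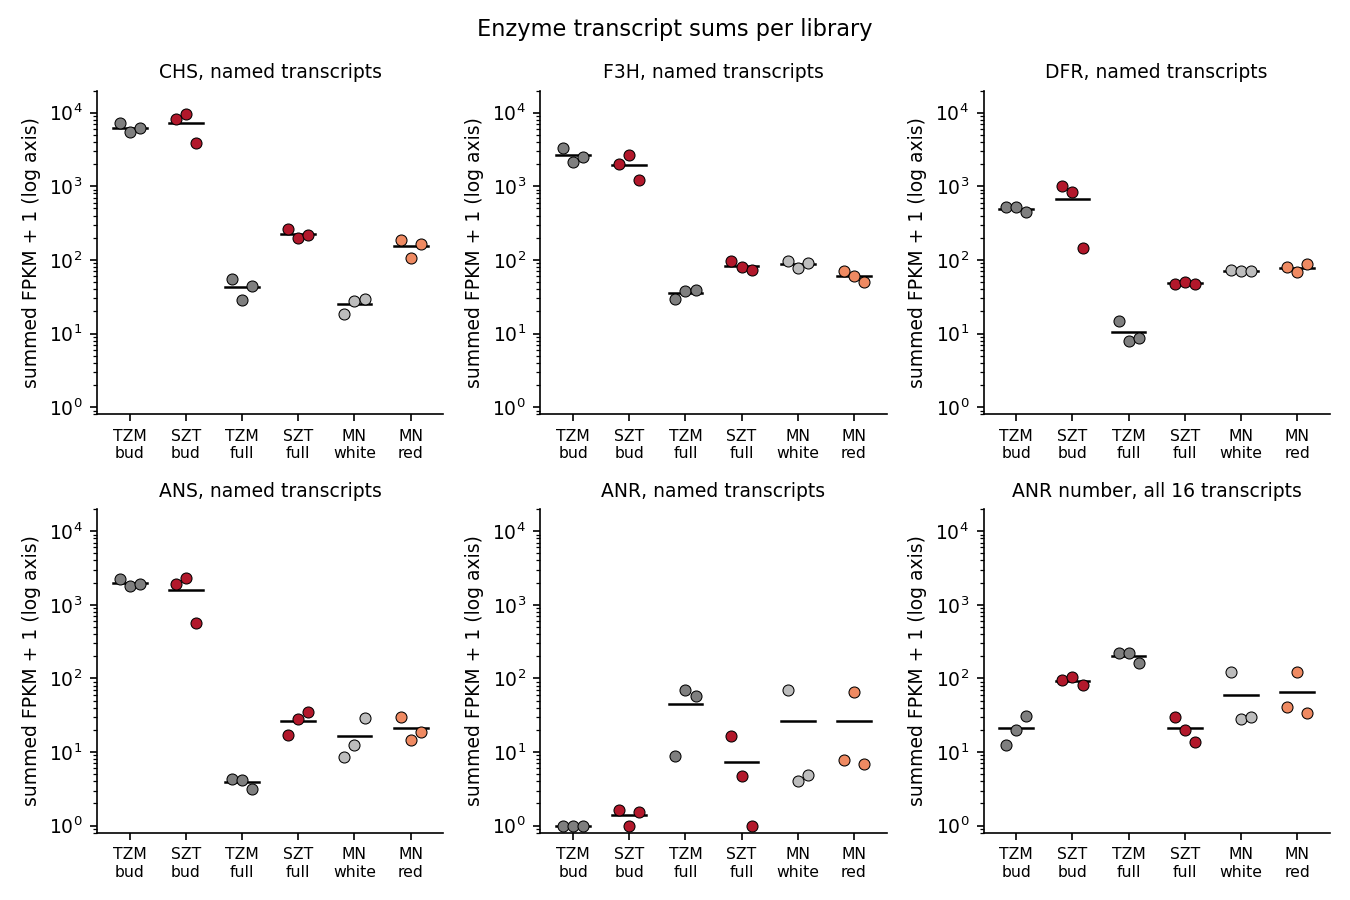
Summed FPKM + 1 per library on a log axis, by enzyme, in buds and full-bloom petals of TZM (gray) and SZT (red) and in the white (light gray) and red (orange) regions of MN at full bloom. Points are libraries and bars are means of 3, and the last panel sums all 16 transcripts that carry the number of the ANR transcripts. For CHS, F3H, DFR and ANS the TZM and SZT points are mixed in buds and apart at full bloom.

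ANR went the other way in level, and its libraries were uneven. Its pair of named transcripts summed to 7.96, 69.5 and 56.2 FPKM in TZM and to 15.5, 3.78 and 0 FPKM in SZT. Replicate 1 of TZM lay below replicate 1 of SZT, so the groups overlapped. The log2 difference of 2.95 (SE 1.04, limma adjusted p 0.0211) was not called, and the exact permutation p was 0.2. Cluster-15097.13 had 3.29, 34.66 and 27.35 FPKM in TZM and 10.41, 3.78 and 0 FPKM in SZT. Cluster-15097.15 had 4.67, 34.84 and 28.84 FPKM in TZM and 5.09, 0 and 0 FPKM in SZT. Their log2 differences were 2.10 (limma adjusted p 0.0884) and 3.32 (0.00363). Neither was called, and in both the groups overlapped. The high values fell in libraries where the 10 most abundant transcripts took a large share of the FPKM. Replicates 2 and 3 of TZM had shares of 12.9% and 13.7%. In MN the named ANR sum was 68.8 FPKM in replicate 1 of the white region and 63.7 FPKM in replicate 2 of the red region, where those shares were 13.7% and 12.1%, and at most 6.79 FPKM in the other 4 full-bloom MN libraries, where they were 5.48% to 7.32%. The part of this share in the ANR values was not tested.

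The 14 unnamed transcripts that carry the ANR number gave a more even picture. Together with the named pair they summed to 220, 220 and 159 FPKM in TZM and to 28.7, 19.0 and 12.7 FPKM in SZT. All TZM libraries were above all SZT libraries, and replicate 1 of TZM was no longer the lowest. The log2 difference of this sum was 3.30 (SE 0.48, limma adjusted p 7.72e-06), which passed the threshold. Of the 5 unnamed transcripts tested 3 were called higher and 0 lower, against 12.7% and 13.5% of all tested transcripts. They share 1 number, so these counts may not be of separate genes. In buds the same sum was lower in TZM, at 20.1 ± 9.26 FPKM (SD, n = 3) against 92.1 ± 10.5 FPKM in SZT, with a log2 difference of −2.23 (limma adjusted p 0.000986). The change of direction between the stages was itself called, at 5.54 on the log2 scale (limma adjusted p 2.45e-06). The sources used here do not say whether the unnamed transcripts encode ANR.

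The other enzymes were far more abundant in buds, and their sums were not called different there. CHS summed to 7139, 5430 and 6207 FPKM in TZM buds and to 8275, 9482 and 3906 FPKM in SZT buds. The groups overlapped, and the log2 difference was −0.12 (limma adjusted p 0.838). The log2 difference in buds was 0.49 for F3H (limma adjusted p 0.163), 0.00 for DFR (1) and 0.54 for ANS (0.409). Replicate 3 of SZT buds was the lowest of the 6 bud libraries for all 4 enzymes, with 145 FPKM of DFR against 833 and 1019 FPKM in its fellow libraries. Without it the bud difference of DFR was −0.89 (SE 0.23, limma adjusted p 0.00626), lower in TZM though under the fold threshold, and those of CHS, F3H and ANS were −0.51, 0.18 and −0.08 (limma adjusted p 0.193, 0.666 and 0.941). The bud mean of CHS was 150 times the full-bloom mean in TZM and 31.9 times in SZT. These ratios were 77.5 and 23.8 for F3H, 52.9 and 14.2 for DFR, and 685 and 62.1 for ANS, wider in TZM for each enzyme. The test of the difference between the stages was called for CHS at −2.34 (SE 0.43, limma adjusted p 0.00021), F3H at −1.73 (SE 0.37, 0.000878) and ANS at −3.27 (SE 0.64, 0.000407). For DFR it was −2.25 (SE 0.62, limma adjusted p 0.00675), short of the threshold. Without replicate 3 of SZT buds the DFR value was −1.37 (SE 0.31, limma adjusted p 0.00184), and F3H missed the threshold at −1.42 (0.00269). Fitted on the 12 bud and full-bloom libraries of both cultivars alone, none of the stage differences passed (CHS 0.0057, F3H 0.00867, ANS 0.00378, DFR 0.0582). Over all tested transcripts 15.7% were called for this difference, 7.41% with TZM relatively higher at full bloom and 8.33% relatively lower.

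The white and red regions of MN gave another contrast of white with red petal tissue. Its libraries did not enter the TZM and SZT means, though they shared the estimate of the spread in the fit. There CHS summed to 17.3, 26.3 and 28.9 FPKM in the white and to 188, 106 and 163 FPKM in the red region, a log2 difference of −2.60 (limma adjusted p 0.000112). The CHS sum was lower in the white than in the red region, as it was lower in TZM than in SZT. F3H was 86.9 FPKM in the white and 59.4 FPKM in the red region and DFR 70.4 and 77.0 FPKM, and ANS was 15.6 and 20.0 FPKM, with log2 differences of 0.55, −0.12 and −0.47 (limma adjusted p 0.882, 1 and 1). Whether the cultivar and region differences themselves differ was not tested. Over the 35889 transcripts, 16 (0.0446%) were called between the regions, all higher in the red one. Of these 7 were also among the 9406 called between TZM and SZT, 3 in the same direction and the rest in the opposite one. Over all tested transcripts 26.2% were called between the cultivars, and 13.5% were called lower in TZM. Whether the overlap departs from these shares was not tested. Cluster-72978.11 of CHS was among the 3, with a log2 difference of −2.71 between the regions.

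The regions of MN, a bud variant of SZT, lay nearer to SZT than to TZM for most of the called transcripts. The same share over all tested transcripts was not counted, so these shares have no baseline. Of the 4568 that were higher in TZM, the mean log2 level of the white region was on the SZT side of the midpoint for 3726 (81.6%) and that of the red region for 3582 (78.4%). Of the 4838 that were lower in TZM, it was so for 3019 (62.4%) in the white and 2964 (61.3%) in the red region. At initial flowering the shares were 74.8% and 52.6%.

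Transcription factors were counted from the 49 named by the study, in 27 families. The study named them for co-expression with the enzyme and other listed transcripts on these same samples. A direction shared with the enzymes is therefore not independent evidence. Of the 49, 40 had a higher mean in SZT, 4 in TZM, and 5 were at 0 in all 6 libraries. The filter kept 19, of which 18 had a log2 difference below 0, against 48.9% of all tested transcripts. Of the 19, 6 were called lower in TZM and 0 higher, against 13.5% and 12.7% of all tested transcripts. At an adjusted p under 0.05 the counts were 15 lower and 0 higher, against 26.9% and 28.1%. Their median log2 difference was −0.87, beside 0.04 over all tested transcripts.

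The bZIP pair is also listed by the study under sucrose-induced translational repression, a control known from Arabidopsis in which sucrose lowers the translation of certain bZIP messages. Cluster-73402.0 had 10.7, 14.5 and 18.02 FPKM in TZM and 27.2, 76.6 and 82.9 FPKM in SZT. Cluster-73402.1 had 3.53, 7.42 and 6.18 FPKM in TZM and 16.8, 47.7 and 38.1 FPKM in SZT. In both, replicate 1 of SZT was the lowest of its cultivar yet above every TZM library. The log2 differences were −1.91 (SE 0.35, limma adjusted p 0.000111) and −2.32 (SE 0.40, limma adjusted p 5.36e-05). The first of these calls was lost when replicate 2 (limma adjusted p 0.00124) or 3 (0.00137) of SZT was left out. In buds neither was called, at 0.29 (limma adjusted p 0.588) and −0.97 (0.0659).

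The SBP factor Cluster-69579.0 belongs to the SQUAMOSA promoter-binding family, which acts in flowering and phase change. It had 1.93, 1.73 and 2.03 FPKM in TZM and 5.26, 14.2 and 14.7 FPKM in SZT. The TZM libraries were tight and below all of SZT, with a log2 difference of −1.98 (SE 0.28, limma adjusted p 4.87e-06). The Tify factor Cluster-98191.2, of a family that includes repressors of jasmonate signaling, was scarce in TZM at 0.41, 0.31 and 0.26 FPKM. In SZT it had 2.39, 6.12 and 7.73 FPKM, without overlap, and the log2 difference of −2.17 (SE 0.30, limma adjusted p 3.90e-06) was accompanied by −1.47 in buds (0.000575), also called. It was the single one of the 6 called factors that was called in buds.

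The MADS factor Cluster-93016.5 belongs to the MIKC type, which includes the floral organ identity genes. Its levels were 20.6, 17.6 and 21.5 FPKM in TZM and 32.3, 56.3 and 37.6 FPKM in SZT, apart but close to the fold threshold at a log2 difference of −1.01 (SE 0.22, limma adjusted p 0.000702). Its call was lost without any single library other than replicate 1 of SZT, down to −0.78 (0.00783) without replicate 2 of SZT. The TCP factor Cluster-77973.0 comes from a family that shapes growth of leaves and petals. It had 17.3, 3.03 and 3.18 FPKM in TZM and 16.3, 34.0 and 27.04 FPKM in SZT. Replicate 1 of TZM was above replicate 1 of SZT, so the groups overlapped although the log2 difference of −1.93 (SE 0.43) was called (limma adjusted p 0.000785). Its call was lost when replicate 2 or 3 of either cultivar was left out (limma adjusted p 0.00407 to 0.0083), without a filter (0.00171), with the filter over all groups (0.00107) and on the 6 libraries alone (0.0549).

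Of the 13 factors that were not called, 12 had a log2 difference below 0, from −1.17 to −0.04, beside 48.9% of all tested transcripts. The one tested MYB, Cluster-96185.4, had 2.65, 1.5 and 4.16 FPKM in TZM and 3.70, 9.26 and 10.02 FPKM in SZT. Its groups overlapped, and the difference of −1.17 (SE 0.30) had a limma adjusted p of 0.0029. Of the other 8 MYB transcripts, 4 were at 0 in all 6 libraries, and none of the 8 or of the 4 bHLH transcripts reached the filter. Both B3 transcripts tested were lower without overlap but short of the threshold, at −1.15 (limma adjusted p 0.00645) for Cluster-63755.0 and −0.87 (0.000388) for Cluster-86814.2. The Whirly transcript Cluster-106545.0 had 6.71, 6.04 and 5.76 FPKM in TZM against 9.23, 12.7 and 13.4 FPKM in SZT, and missed the fold threshold at −0.82 with a limma adjusted p of 0.000194. The exception was the SNF2 transcript Cluster-100695.19, a chromatin remodeling type, with 11.92, 12.66 and 12 FPKM in TZM and 10.2, 3.91 and 6.55 FPKM in SZT, and a difference of 0.82 (SE 0.37, limma adjusted p 0.0667).

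**Figure D3:**
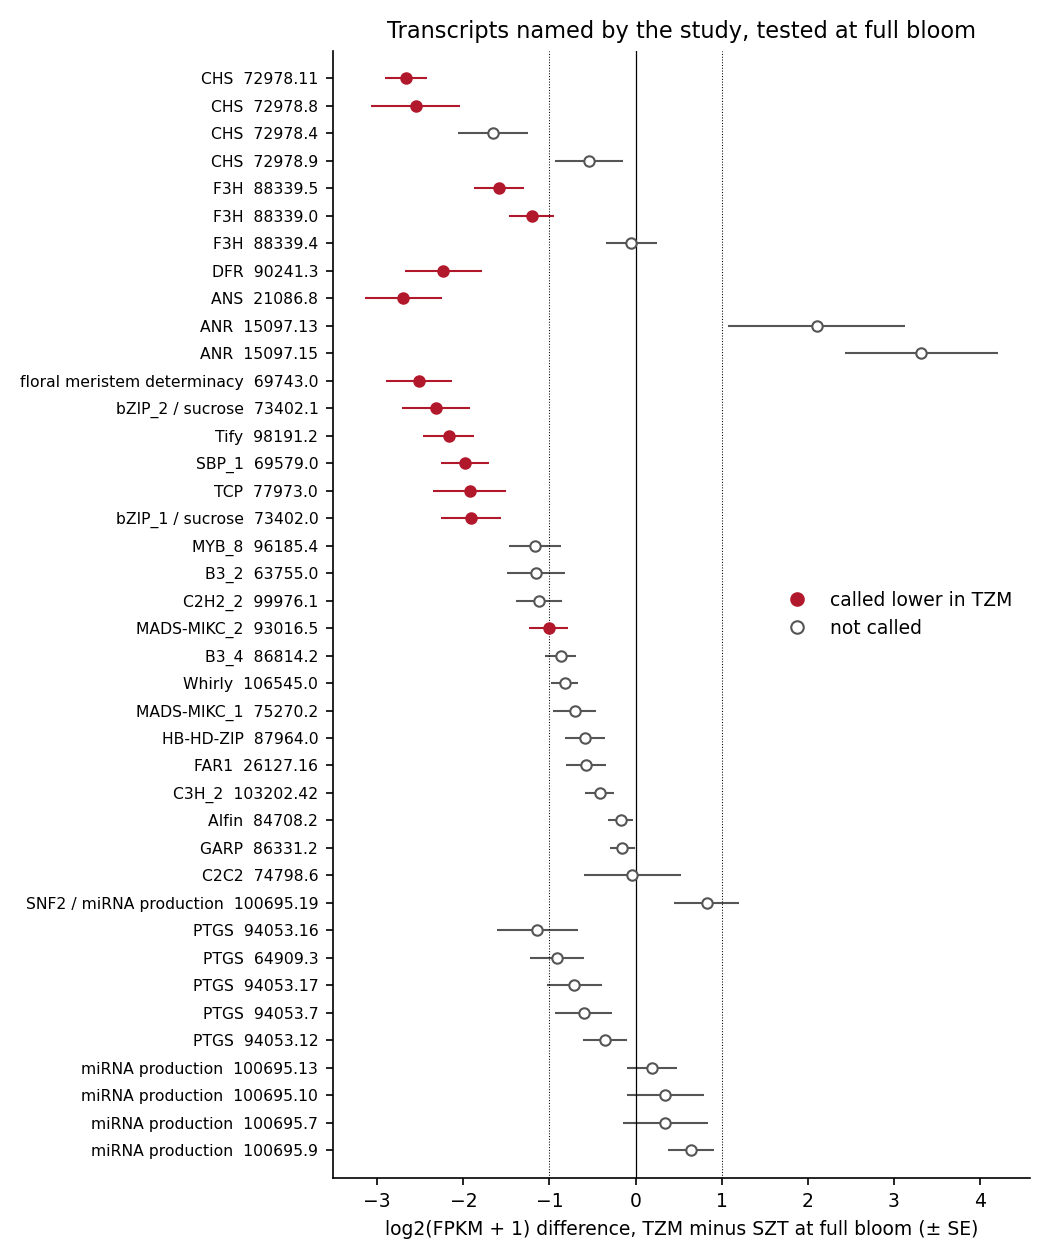
Difference in log2(FPKM + 1) between TZM and SZT at full bloom, ± SE from limma, for the 40 tested of the 86 transcripts named by the study, labeled by name and by the number after Cluster- in the transcript's name (PTGS, posttranscriptional gene silencing). Filled red points are the 13 called lower in TZM, open points the 27 not called, and dotted lines mark a difference of 1 in size. Points right of 0 are the ANR pair and the miRNA production list.

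Lists on small RNA and flower development held fewer tested transcripts. The floral meristem determinacy list, whose subject is the end of stem cell activity in the flower's center, had 1 tested of 6. That transcript, Cluster-69743.0, had 0.21, 0.96 and 0.81 FPKM in TZM and 11.1, 6.33 and 8.04 FPKM in SZT, the groups far apart. The log2 difference was −2.51 (SE 0.39, limma adjusted p 1.70e-05), and in buds it was −1.49 (0.00509), not called. The list for positive regulation of posttranscriptional gene silencing, the RNA-guided shutdown of messages, had 5 tested and 0 called, with 2 lower at an adjusted p under 0.05 and log2 differences of −1.14 to −0.36. The list for production of miRNAs had 5 tested and 0 called, 1 of them higher at an adjusted p under 0.05, with log2 differences of 0.19 to 0.82. In buds 2 members of the silencing list were called lower in TZM, Cluster-94053.12 at −1.55 and Cluster-94053.17 at −1.70. Among the miRNA production members 4 were called higher in TZM buds, at 1.47 to 2.09 on the log2 scale. They include the SNF2 transcript Cluster-100695.19 named above, which is on both lists. All miRNA production members carry the number Cluster-100695, and all silencing members except Cluster-64909.3 carry Cluster-94053. Whether members with the same number stand for separate genes is not known, so these counts may not be of separate genes. Over all tested transcripts 5.2% were called lower and 6.96% higher in TZM buds.

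Over all 86 named transcripts, 13 of the 40 tested were called lower in TZM and 0 higher, against 13.5% and 12.7% of all tested transcripts. At an adjusted p under 0.05 the counts were 25 lower and 2 higher, against 26.9% and 28.1%. The study chose these transcripts on these same samples, so the counts are not independent evidence. The count of 13 became 8 without replicate 2 of TZM or of SZT and 7 when replicate 3 of SZT was left out. Fitted on the 6 libraries alone it was 1, Cluster-72978.11 of CHS, while 16 were lower and 1 higher at an adjusted p under 0.05.

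The largest differences lay in transcripts with no name, of which the pair with the largest rise and the pair with the largest fall are given. Cluster-79961.12 had 2978, 6066 and 3197 FPKM in TZM and 0, 0 and 0.15 FPKM in SZT, and at most 1.65 FPKM as a mean in any other group. The 14 transcripts sharing its number differed far less in sum, at 7784 FPKM in TZM and 1655 FPKM in SZT (log2 difference 2.24, limma adjusted p 6.21e-06), and at 10962 and 10638 FPKM in their buds. Cluster-6248.28 had 965, 1542 and 1981 FPKM in TZM and was listed at 0 in all 3 SZT libraries. It was also above 0 in TZM buds, at 23.4 ± 18.9 FPKM (SD, n = 3). The transcripts that share its number included some of the most abundant in the petals. These 37 summed to 36373, 121657 and 135041 FPKM in TZM and to 37093, 18570 and 10889 FPKM in SZT, from 3.19% to 10.2% of a TZM library and 0.936% to 2.96% of an SZT library, and their summed log2 difference of 2.11 (SE 0.50) was short of the threshold (limma adjusted p 0.00147). Replicate 1 of TZM was below replicate 1 of SZT in that sum.

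In the opposite direction, Cluster-102806.15 was listed at 0 in the 3 TZM libraries and had 1087, 2402 and 1879 FPKM in SZT. It was at 162 ± 84.6 FPKM (SD, n = 3) in the white and 167 ± 34.0 FPKM in the red region of MN. Its number, with 17 transcripts, summed to 372 FPKM in TZM and 3454 FPKM in SZT, a called log2 difference of −3.36 (limma adjusted p 3.84e-05). Cluster-94147.1 was listed at 0 in TZM and had 879, 1809 and 1980 FPKM in SZT. It was abundant in MN at initial flowering (2076 FPKM) and in its white and red regions (1175 and 1201 FPKM), and at 13.7 FPKM or less in the bud groups. A value of 0 in this table can also be a failed estimate.

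Transcripts listed at 0 in one cultivar were common. There were 1688 with a mean of at least 5 FPKM in TZM and 0 in all 3 SZT libraries, and 1945 with at least 5 FPKM in SZT and 0 in all 3 TZM libraries. How these lists fell in the other groups is given next, where MN is a bud variant of SZT. The share of all tested transcripts at 0 in each group was not counted. Of the 1688 present in TZM, 64.8% were also at 0 in SZT buds, 65.8% in the white region of MN and 66.0% in its red region, against 21.9% in TZM buds. Of the 1945 present in SZT, 66.3% were at 0 in TZM buds, 31.1% in SZT buds, 15.8% in the white and 15.4% in the red region of MN. For this list the share was 37.8% in early and 33.6% in late MN buds, and 20.9% in MN petals of initial flowering. For the 1688 the same MN groups had 61.5%, 68.1% and 66.0%. At 0 in all 21 SZT and MN libraries were 555 of the 1688 (32.9%). These shares describe how the lists fell over the other groups and were not tested, so they do not separate cultivar, color and stage.

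**Figure D4:**
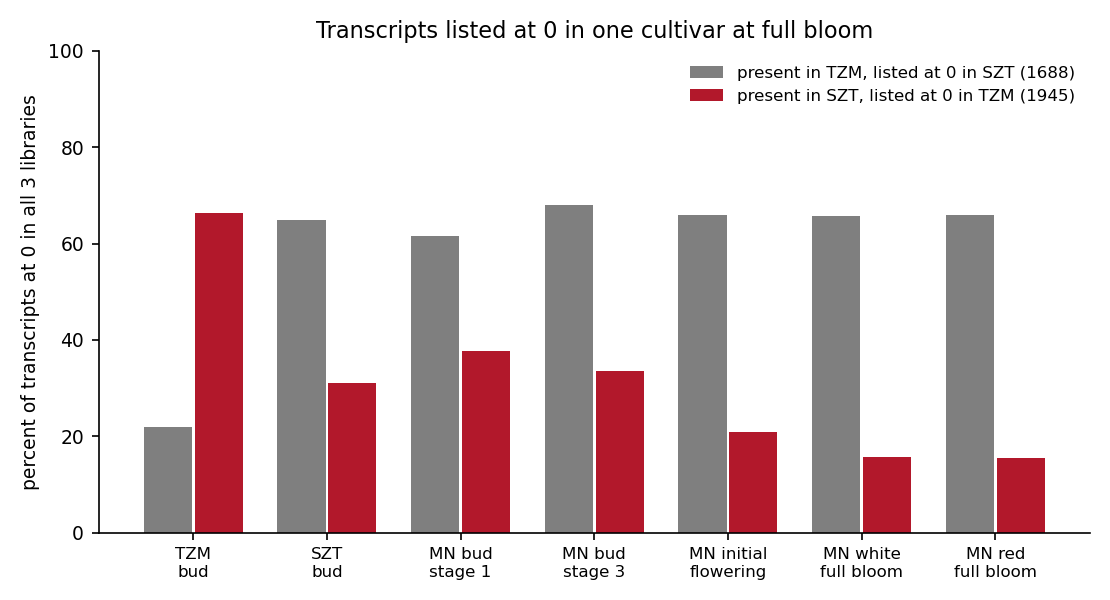
Share (percent) of transcripts at 0 in all 3 libraries of each other group, for the 1688 present in TZM and listed at 0 in SZT at full bloom (gray bars) and the 1945 present in SZT and listed at 0 in TZM (red bars). Gray bars are lowest in TZM buds (21.9%) and between 64.8% and 66.0% in SZT buds and both full-bloom regions of MN, and red bars are lowest in the MN regions.

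Some transcripts that share a number were called in opposite directions. Of 5657 numbers with at least 2 tested transcripts, 3121 held a called one, and 488 of these (15.6%) held both a called higher and a called lower transcript. Of the 7401 called transcripts whose number has at least 2 transcripts in the table, the sum over the number was called in the same direction for 3005 (40.6%), in the opposite direction for 85, and not called for 4311 (58.2%). When numbers were tested in place of transcripts, 4356 of 19913 sums were called (21.9%), 2091 higher and 2265 lower in TZM. The sources used here do not say what the number stands for.

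Most of the differences at full bloom were not called at the bud stage, where 12.2% of the 35889 transcripts were called. Among the 4568 higher in TZM at full bloom, 1007 (22.0%) were called higher in buds too and 153 (3.35%) were called lower, against 6.96% and 5.2% of all tested transcripts. Among the 4838 lower at full bloom, 872 (18.02%) were called lower in buds and 235 (4.86%) higher. The bud difference had the same sign as at full bloom for 64.8% of the former and 57.3% of the latter, and 74.6% and 77.1% were not called in buds.

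**Figure D5:**
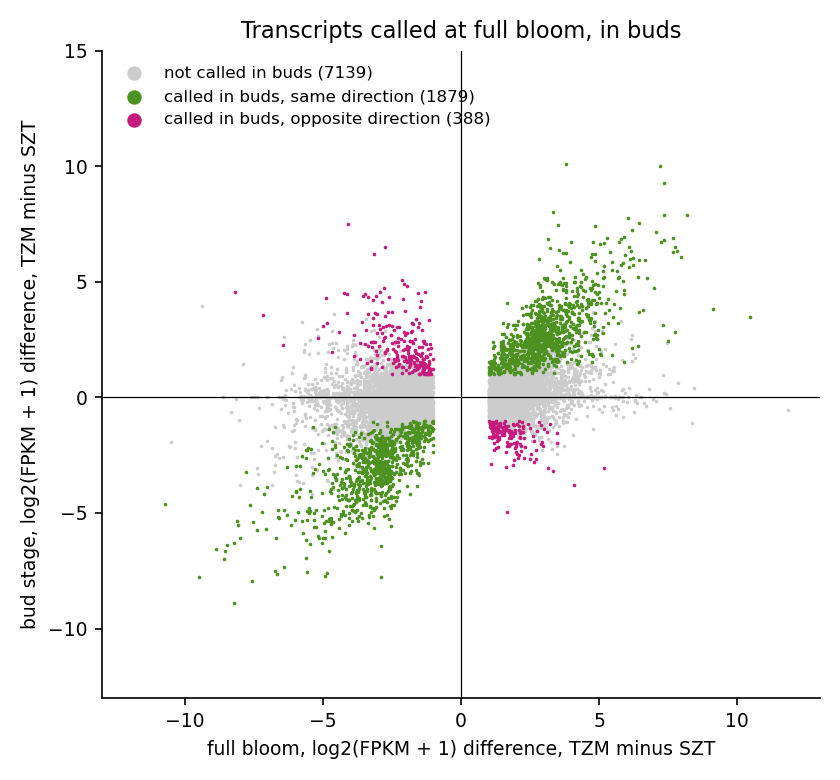
Each point is 1 of the 9406 transcripts called between TZM and SZT at full bloom, with the log2(FPKM + 1) difference at full bloom (x axis) and in buds (y axis), both TZM minus SZT. Green points are the 1879 also called in buds in the same direction and pink points the 388 called in the opposite direction. Gray points, not called in buds, lie in a band around a bud difference of 0.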

How the data were processed

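Petal RNA was enriched for mRNA and sequenced on an Illumina HiSeq, and the 27 libraries were assigned to 9 groups by their labels, with 0 columns unmatched. Reads were trimmed by the authors (Trimmomatic 0.36) and mapped to transcripts that Trinity had assembled from them without a genome. Neither the mapper nor the program behind the expression values was given in the sources used here. FPKM values were deposited by the authors, rounded to 2 decimals. Cultivars were compared by limma (version 3.58.1, R 4.3.3) on log2(FPKM + 1), which understates the change of scarce transcripts, with 1 mean per group over all 27 libraries, a trend on expression, and the 5 enzyme sums added to the 35889 transcripts. The DEGseq tool of the study's Methods needs read counts and was not run. Scripts were tested on simulated data. Version 1.17.8 of data.table read the tables, and plots were drawn with Python 3.11.15, numpy 2.4.6, pandas 2.3.3 and matplotlib 3.10.9.

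Names came from the study's supplementary list of 86 transcripts. All tested transcripts on it were counted, all enzyme and called ones were named with values, and of the unnamed ones called without overlap the pair with the largest difference in each direction was named. Some uncalled factors were also named, after their values were seen. The members and lists were chosen with earlier results of these data known. Alternatives were a pseudocount of 0.01, a minimum of 10, no filter or a filter over all groups, a block for replicate number, median-ratio scaling, fitting the compared libraries alone, other thresholds, other transcripts in the sums, and each library left out. Same-numbered TZM and SZT libraries did not deviate together, so no pairing was used. Metabolites and sequences were not analysed here.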

Additional observations from a re-analysis of the deposited data

Results flagged for a closer look

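The difference between TZM and SZT at full bloom differed from that in buds, by the test of the difference between the stages, for 3 enzyme sums and 3 of their transcripts. In log2(FPKM + 1) it was −2.34 for CHS, −1.73 for F3H and −3.27 for ANS, and −2.13 for Cluster-72978.11 of CHS, −1.95 for Cluster-88339.0 of F3H and −3.24 for Cluster-21086.8 of ANS. All were lower in TZM at full bloom relative to buds. Over single libraries left out of either stage, the limma adjusted p reached 0.00108 for CHS, 0.00171 for ANS and 0.00342 for F3H, above the threshold of 0.001 in some of these fits but under 0.05 in all. On the bud and full-bloom libraries of both cultivars alone it was 0.0057 for CHS, 0.00867 for F3H and 0.00378 for ANS, and F3H also missed the threshold at a pseudocount of 0.01 (0.00121) and without a filter (0.00136). Over all transcripts with the ANS number the ANS value was −1.43 (limma adjusted p 0.099), which was not called.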

How the results depend on the processing

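No enzyme sum and no named transcript given with alternatives reversed a called direction, and reversals among the other called transcripts were not counted. The 9406 calls became 5676 at a minimum of 10 FPKM, 16870 without a filter, 15040 at an adjusted p under 0.05 and 1322 on the 6 libraries alone. The same settings gave for the number sums 7820 without a filter, 7128 at 0.05 and 201 on the 6 libraries. The 1879 transcripts called alike in buds became 1106 at the minimum of 10, 3269 without a filter, 3498 at 0.05 and 229 on each comparison's libraries alone, and the 388 called oppositely became 1141 at 0.05 and 6 alone. The 5651 calls of the stage difference became 12786 at 0.05 and 2225 alone. The 7 transcripts also called between the MN regions became 33 at 0.05, 3 with the replicate block and 0 alone (in the main fit 16 were called between these regions). Leaving out a library gave 4 to 6, with 4 without replicate 1 and 4 without replicate 2 of the red region. The named transcripts called, 13, became 1 on the 6 libraries and 7 to 15 without single libraries. The lists at 0 held 831 and 710 transcripts at a mean of 10 FPKM or more in SZT and TZM.

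On the 6 libraries alone the unchanged differences of CHS (−2.46), F3H (−1.24), DFR (−2.26) and ANS (−2.73) missed the threshold. Without single libraries F3H ranged from −1.33 to −1.11 and DFR from −2.53 to −2.08. ANR passed at an adjusted p under 0.05 (2.95) and over all transcripts of its number (3.30), where ANS did not (−0.88). The replicate block left 9057 calls, 95.2% of the main ones among them. Of the named transcripts given with alternatives, it ended only the call of the TCP factor Cluster-77973.0 (limma adjusted p 0.00133). Median-ratio scaling moved the median log2 difference from 0.04 to −0.11 and gave 10537 calls, 42.7% of them higher in TZM (48.6% unscaled). Where a count moved, the cause was not tested beyond the change in what was fitted.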
